A study of Caenorhabditis elegans and Caenorhabditis briggsae with 12 samples.

Results

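This account covers the response of *C. elegans* larvae to heat shock, as measured by RNA-seq in 6 of the 12 libraries of the study. The HS group holds 3 replicates of whole L2 larvae, of the wild-type strain N2, kept in a water bath at 34 °C for 30 min. The NHS group holds 3 replicates of the same strain and stage left at 20 °C. The labels call the replicates biological, and p-values below measure the spread between these libraries. The other 6 libraries, from a second *Caenorhabditis* species, are not used here. All 20213 genes of the deposited *C. elegans* table were taken, and the account dwells on the genes that fell and on how the reads were shared out among genes. Each value is a normalized count, made by the authors by assigning reads to mRNA transcripts and dividing by 1 factor per library.

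Heat shock is known as a state in which the transcription factor HSF-1 drives chaperone genes to very high output, while transcription of many other genes is curbed. The chaperones made, among them HSP70 and the small heat shock proteins, hold or refold proteins that lose their shape. Since a whole larva is sampled, fewer cells of a type and less RNA per cell cannot be told apart in any of the values below. Summed normalized counts were 39420300 to 43048800 per library in HS and 32228400 to 32534000 in NHS, and the depth estimated from the spacing of low values was 2.86e+07 to 4.39e+07 reads in HS and 3.28e+07 to 3.90e+07 reads in NHS. Summed levels of the marker genes of muscle, intestine, pharynx, neurons, hypodermis and germline were well above 0 in every library, whereas the oocyte and embryo markers summed to 532 to 567 normalized counts in HS and 361 to 461 in NHS. The yolk and adult collagen markers, which L2 larvae should lack, summed to 39.1 to 87.01 normalized counts in HS and 15.5 to 27.2 in NHS, and the sperm markers to 51.8 to 97.9 in HS and 38.1 to 53.5 in NHS. Of these 3 lists the first 2 did not overlap between the groups, and their 1 called gene was *vit-2*, a yolk protein gene called up, whose call was lost without NHS replicate 1.

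On the authors' scaling, falls after heat shock were less frequent and much smaller than rises. A gene was called at an adjusted p under 0.01 from limma and a fold change above 2 on the log2(normalized count + 1) scale. Of 17551 genes tested, 486 (2.77%) were called down and 1791 (10.2%) were called up. The median log2 fold change was -1.27 among the genes called down and 2.56 among those called up. Of the 486 genes called down, 453 fell less than 4-fold, and the deepest fall among all 486 was -2.97 on the log2 scale. In contrast, 602 genes rose more than 8-fold and 32 rose more than 64-fold. The sizes are compared at unlike levels. Genes called up had a median HS mean of 28.6 normalized counts, and genes called down a median NHS mean of 151. Without HS replicate 1 the count up was 1137, and without any other single library it was 1309 to 1611, while the count down was 338 to 595 over all 6 omissions. With no minimum fold change, 2266 genes (12.9%) were lower and 2765 (15.8%) were higher in HS at the same adjusted p. Thus 78.6% of the genes that were lower fell less than 2-fold, against 35.2% of those that were higher. All 486 genes called down were lower in every HS library than in every NHS library, which is a property that the call itself favours. The share of calls that were up depended on the scaling between libraries. It was 78.7% on the authors' scaling, 83.0% with upper quartiles made equal, 66.1% with equal totals of the genes outside the 20 most abundant of any library and 52.7% with equal totals, where 1329 genes were called down. The median log2 fold change of all genes was 0.04, 0.11, -0.15 and -0.32 under these scalings, and fold changes below are on the authors' scaling unless stated.

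Of the genes called down, the one that lost most normalized counts was *hrg-7*, which encodes a secreted protein of the aspartic protease family that signals heme status between tissues. It lies on chromosome V at 12742041 to 12744171 of the WBcel235 (ce11) assembly. It had 5499.7, 5103 and 6429.7 normalized counts in the HS libraries, against 27884, 23223 and 24697 in the NHS libraries, which is -2.16 as a log2 fold change (limma, SE 0.10 with an adjusted p of 3.14e-06). The highest HS library was thus far below the lowest NHS library. A second aspartyl protease gene, *asp-13* (chromosome V, 8641602 to 8643193), fell further and from a lower level. It had 457, 434 and 371 normalized counts in HS and 3403, 2879 and 3101 in NHS. The next largest losses were in *R193.2* and *T01D3.6*, genes known by a sequence name. *R193.2* had 5525, 4592 and 5998 normalized counts in HS, against 15155, 14730.2 and 14915 in NHS. *T01D3.6* had 3369, 2815 and 2766 normalized counts in HS, against 8816, 8193 and 8172 in NHS. In both genes the groups were separated by far more than the spread within either, with log2 fold changes of -1.48 (SE 0.09) and -1.50 (SE 0.08).

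Several regulators and enzymes were among the 15 called down genes with the largest losses. *mxl-3* encodes a bHLH factor that is known to repress lysosomal lipase genes in fed worms and to decline on fasting. It had 623, 1061 and 512 normalized counts in HS and 4681, 3564 and 3874 in NHS, which is -2.52 as a log2 fold change (limma, SE 0.31 with an adjusted p of 0.0027). Its 3 HS values spread about 2-fold, and the call was lost without HS replicate 1 or without any NHS replicate (adjusted p = 0.0103 to 0.0145) and with the replicate number as a block (adjusted p = 0.0118). *dre-1* encodes an F-box protein of a ubiquitin ligase that acts in the timing of development. It had 3968, 4618 and 5371 normalized counts in HS and 8996, 8662 and 10648 in NHS. Its fall was close to the 2-fold limit (log2 fold change -1.03, SE 0.12), and dropped under it without HS replicate 1 (-0.92) or NHS replicate 3 (-0.93). *pgal-1*, for an enzyme of the amidation of neuropeptides, had 2299.9, 2334 and 2624 normalized counts in HS and 5490.0, 5469 and 5392 in NHS (log2 fold change -1.17, SE 0.06). *cubn-1*, a homologue of the endocytic receptor cubilin, fell with a log2 fold change of -1.56 (SE 0.10). *ndnf-1*, a homologue of a vertebrate neuron-derived secreted factor, fell with a log2 fold change of -2.05 (SE 0.10). Each HS value of these 3 genes was below each NHS value. Of the 15 genes, the cathepsin gene *cpz-1* had the weakest call (adjusted p = 0.00977), which was lost without any one HS replicate or NHS replicate 1 (adjusted p = 0.0277 to 0.0385). *Y62E10A.13* dropped under the 2-fold limit without NHS replicate 1 (log2 fold change -0.98).

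**Figure D1:**
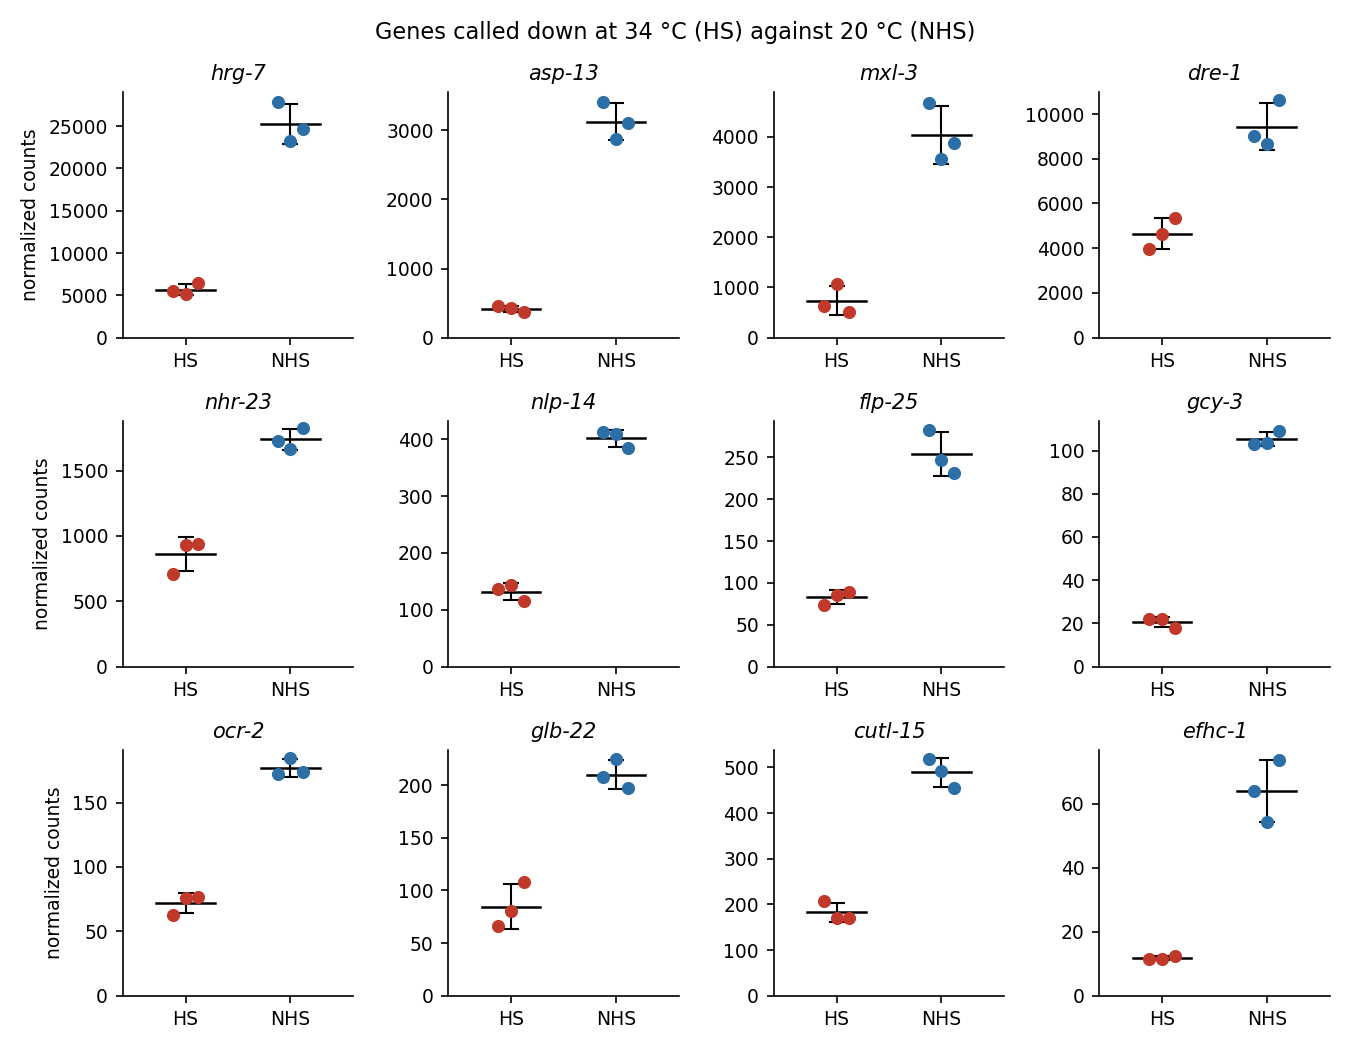
Normalized counts of 12 genes called down, with HS (34 °C) left and NHS (20 °C) right in each panel, 1 point per library and bars for the mean ± SD of 3 libraries. In every panel the 3 HS points lie below the 3 NHS points, as for *asp-13* (371 to 457 in HS, 2879 to 3403 in NHS).

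By log2 fold change rather than by counts, the 15 deepest falls at a mean level of 10 or more lay between -2.97 and -2.19. They took in *asp-13* and *mxl-3* as well as genes of much lower level. *efhc-1*, a homologue of a human gene for an axonemal protein, had 11.5, 11.4 and 12.4 normalized counts in HS and 63.9, 54.3 and 73.6 in NHS (log2 fold change -2.33, SE 0.22, adjusted p = 6.23e-05). *gcy-3*, for a receptor-type guanylyl cyclase of salt-sensing neurons, had 22.02, 21.8 and 17.9 normalized counts in HS and 103, 104 and 109 in NHS (log2 fold change -2.30, SE 0.18). Both genes held tightly within each group. Among genes with sequence names, *K06A4.7* had the smallest error, with 297, 317 and 273 normalized counts in HS and 1421, 1308 and 1359.6 in NHS (log2 fold change -2.20, SE 0.08). *F44A6.5* fell with a log2 fold change of -2.29 (SE 0.13) and *ZK418.11* with -2.78 (SE 0.30).

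Genes were sorted by name into 59 classes, and the class with the largest share of falls was the globins, heme proteins that bind oxygen and that in *C. elegans* are mostly made in neurons. Of 34 globin genes tested, 8 (23.5%) were called down against 2.77% of all genes tested, 1 was called up and 25 did not pass the test. Their median log2 fold change was -0.66, beside 0.04 for all genes. *glb-22* had 66.1, 80.1 and 108 normalized counts in HS and 207, 225 and 198 in NHS (log2 fold change -1.33, SE 0.18, adjusted p = 3.56e-04). *glb-11* had 139, 168 and 207 normalized counts in HS and 386, 409 and 422 in NHS (log2 fold change -1.26, SE 0.14). The groups did not overlap in either gene, and the HS libraries differed more among themselves than the NHS libraries did. The deepest fall was that of *glb-34* (log2 fold change -1.55, SE 0.33), whose call was lost without any one NHS replicate (adjusted p = 0.0154 to 0.0261). *glb-9* and *glb-23* fell with log2 fold changes of -1.26 and -1.30. Leaving out a library gave 6 to 11 globins down.

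Neuropeptide and insulin-like peptide genes came next. These encode short secreted signals, the FMRFamide-like *flp*, the other neuropeptide-like *nlp* and the insulin-like *ins* families. Of 140 tested, 19 (13.6%) were called down and 6 were called up, and the median log2 fold change was -0.41. The falls were 10 of 70 *nlp*, 3 of 31 *flp* and 5 of 35 *ins* genes, together with *ntc-1*, which encodes the vasopressin- and oxytocin-like peptide nematocin. *nlp-14* had 137, 143 and 116 normalized counts in HS and 412, 409 and 384 in NHS (log2 fold change -1.60, SE 0.11, adjusted p = 1.20e-05). *flp-25* had 73.7, 85.3 and 89.7 normalized counts in HS and 283, 247 and 231 in NHS (log2 fold change -1.60, SE 0.13). The most abundant *flp* gene called down, *flp-16*, had 365, 423 and 328 normalized counts in HS and 837, 893 and 777 in NHS. In each of these 3 genes the HS libraries lay well apart from the NHS libraries. The insulin-like genes were noisier. *ins-6*, for an agonist of the insulin receptor DAF-2, had 11.5, 23.9 and 37.3 normalized counts in HS and 81.6, 65.1 and 97.6 in NHS. Its call (adjusted p = 0.00533) was lost without HS replicate 2 or any one NHS replicate (adjusted p = 0.0125 to 0.0231). *ins-22* fell with a log2 fold change of -2.16 (SE 0.39), and its call was lost without NHS replicate 3 (adjusted p = 0.0104).

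The receptors for such signals also included falls. Of 130 neuropeptide and other signalling G protein-coupled receptor genes tested, 14 (10.8%) were called down and 3 were called up, with a median log2 fold change of -0.49, and 106 of the 130 had a fold change below 0. *frpr-9*, of the FMRFamide receptor-like family, had 46.01, 57.3 and 56.8 normalized counts in HS and 179, 162 and 159 in NHS (log2 fold change -1.63, SE 0.15, adjusted p = 5.04e-05). *npr-34*, of the neuropeptide receptor family, had 96.7, 92.5 and 86.9 normalized counts in HS and 259, 261 and 224 in NHS (log2 fold change -1.42, SE 0.12). The separation of the groups in both genes was several times the spread within them. Other receptors called down were *npr-2*, *dmsr-3* and the dopamine receptor gene *dop-3*, whose call was lost without HS replicate 2 or NHS replicate 1. *tkr-2*, a tachykinin receptor-like gene, was called with an adjusted p of 0.0099 and not with the replicate number as a block (adjusted p = 0.0159), and its call was also lost without any one library other than HS replicate 3 (adjusted p = 0.0105 to 0.045). The number of receptors called down was 9 without NHS replicate 1.

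Genes for synaptic vesicles and signalling inside neurons showed the same direction. Of 138 tested, 12 (8.70%) were called down and 2 were called up. With any fold change, 64 were lower and 5 were higher at an adjusted p under 0.01, against 12.9% and 15.8% of all genes. The falls were the guanylyl cyclase genes *gcy-3* and *gcy-32*, the G protein subunit genes *gpa-3*, *gpa-13*, *gpa-14*, *gpa-18*, *odr-3* and *gpc-1*, and *rgs-1* and *rgs-3*, for proteins that switch G proteins off. The others were the synaptotagmin gene *snt-7* and *unc-24*, for a stomatin-like protein. *snt-7* had 50.7, 45.7 and 69.0 normalized counts in HS and 189.7, 177 and 172 in NHS (log2 fold change -1.71, SE 0.17, adjusted p = 8.32e-05). *rgs-1* had 71.8, 79.7 and 74.3 normalized counts in HS and 228, 196 and 217 in NHS (log2 fold change -1.49, SE 0.13). Neither gene had overlapping groups. *gpa-13*, *unc-24*, *gpc-1*, *gpa-18* and *odr-3* lost their calls with 1 or more libraries left out.

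Ion channel genes had calls both ways. Of 267 tested, 13 (4.87%, against 2.77% of all genes) were called down and 17 (6.37%, against 10.2%) were called up. The median log2 fold change was -0.25. With equal totals 48 were called down and 13 up, and the count up was 10 without HS replicate 1 and 11 without NHS replicate 2. *ocr-2* and *osm-9* encode TRPV channel subunits that act together in sensory cilia. *ocr-2* had 63.0, 76.0 and 76.8 normalized counts in HS and 172, 185 and 174 in NHS (log2 fold change -1.29, SE 0.14, adjusted p = 1.07e-04). *osm-9* had 118.7, 135 and 146 normalized counts in HS and 306, 317 and 247 in NHS (log2 fold change -1.11, SE 0.13). The potassium channel gene *twk-14*, the nicotinic receptor subunit gene *acr-15* and the bestrophin gene *best-23* fell with log2 fold changes of -1.30, -1.25 and -1.31. In each of these 5 genes the call was made with every library left out in turn.

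Over these 5 classes, globins, peptides, receptors, synaptic genes and channels, 66 of 709 genes tested (9.31%) were called down and 29 were called up. Of all genes, 2.77% were called down and 10.2% up. With all tested genes split into 10 bins by mean level, calls down were most frequent from 36.8 to 376 normalized counts, at 4.10 to 7.46%. No class was matched for level. The median log2 fold change of each class was below that of all genes. The 3 other scalings move all genes by nearly the same amount, so they could not change this. The 6 neuron markers (*unc-119*, *rab-3*, *snb-1*, *unc-13*, *ric-19* and *sng-1*) moved with these classes. Of them 0 were called down by limma, 5 had an unadjusted p under 0.05, and their summed level was 8667 to 9115 normalized counts in HS and 9895 to 10678 in NHS, without overlap. The 4 germline markers were also lower without overlap, at 5702 to 6261 normalized counts in HS and 6555 to 6706 in NHS, with 0 called by limma and 1 at an unadjusted p under 0.05. *rab-3*, a vesicle GTPase gene, had 662, 709.8 and 913 normalized counts in HS and 1102, 1112 and 1075 in NHS (log2 fold change -0.54, SE 0.11). The part of this difference in the falls of the 5 classes was not tested. Chemoreceptor genes, by contrast, had 24 of 761 (3.15%) called down, near the share of all genes, and 165 (21.7%, against 10.2%) called up, a count that was 88 without HS replicate 1. The class is of low level, with a mean sum of 10277 normalized counts in NHS. In the bins from 5.45 to 36.7 normalized counts, 1.14 and 3.59% of all genes were called down and 28.5 and 24.8% up. Among the 24 was *odr-10*, for the receptor for the odorant diacetyl, with 37.3, 41.6 and 27.6 normalized counts in HS and 116, 109 and 122 in NHS (log2 fold change -1.69, SE 0.19). The deepest fall in the family was that of *srh-129*, with 2.87, 4.16 and 2.76 normalized counts in HS and 24.6, 21.7 and 34.6 in NHS, a few reads per library. The number of chemoreceptors down was 9 to 11 without an NHS replicate.

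**Figure D2:**
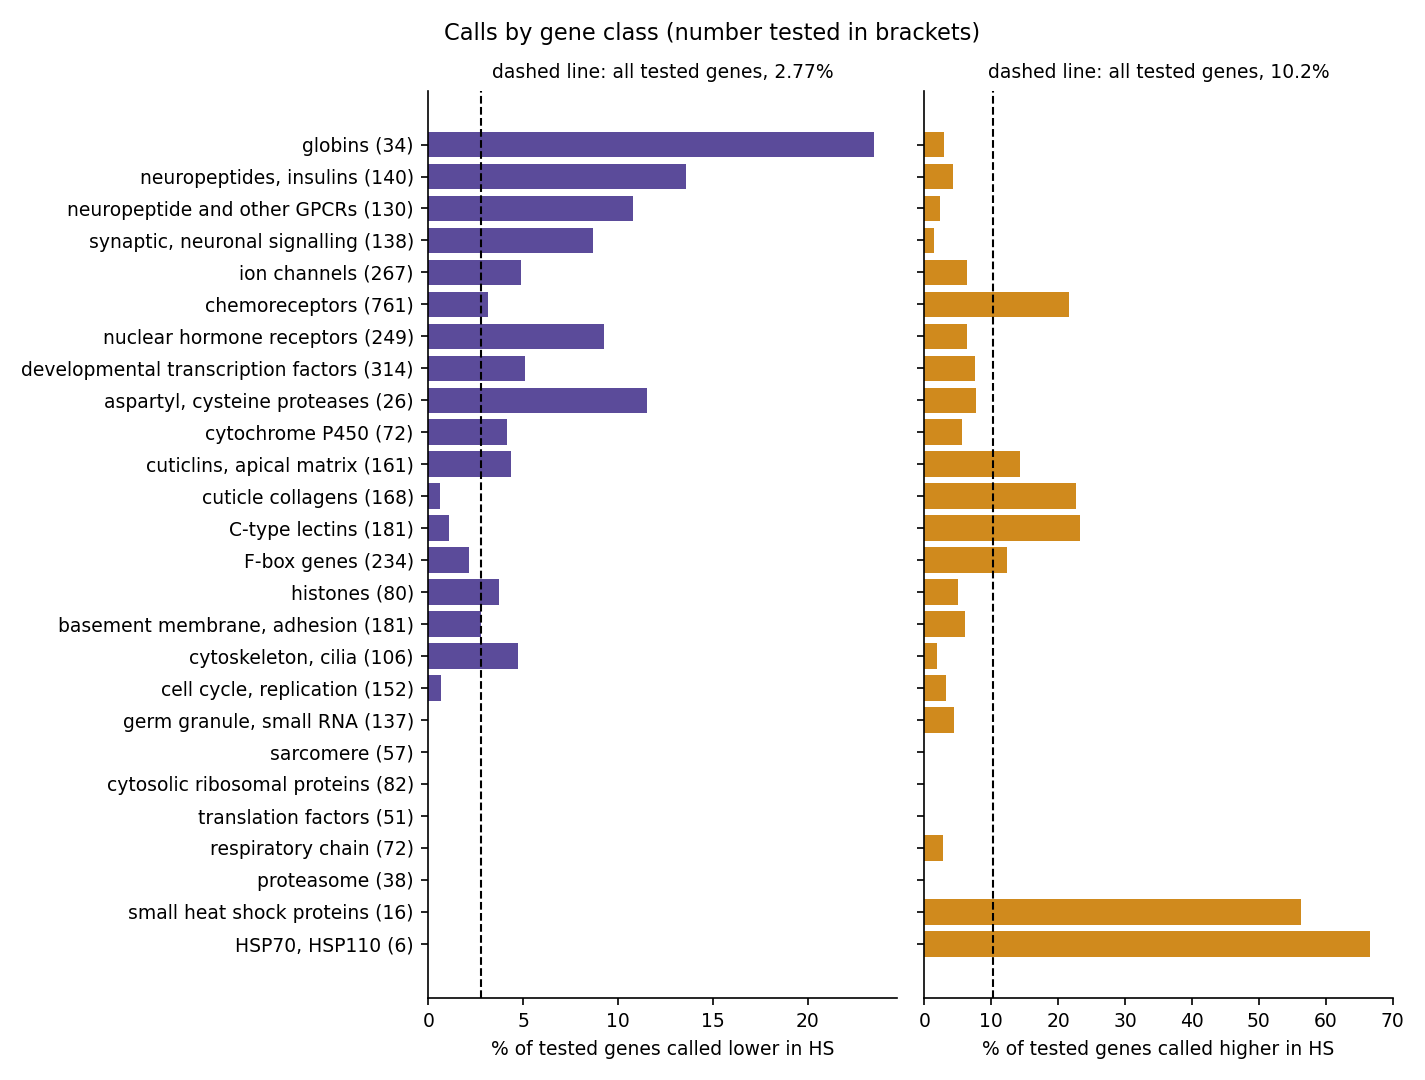
Share of tested genes called lower (left) and higher (right) in HS in 26 gene classes, on the authors' scaling, with the number of genes tested in brackets and a dashed line at the share of all 17551 genes tested (2.77% and 10.2%). Globins (23.5%), neuropeptides (13.6%) and their receptors (10.8%) extend far past the left line, and ribosomal, translation, sarcomere and proteasome genes have no bar on either side.

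Nuclear hormone receptors, ligand-regulated transcription factors that are a large family in nematodes, had calls both ways. Of 249 tested, 23 (9.24%, against 2.77% of all genes) were called down and 16 (6.43%, against 10.2%) were called up. The class was not matched for level. *nhr-23* is the worm homologue of the vertebrate ROR receptors and drives the molting cycle. It had 709.6, 928 and 939 normalized counts in HS and 1726, 1663 and 1823 in NHS (log2 fold change -1.03, SE 0.11, adjusted p = 1.19e-04), and dropped under the 2-fold limit without HS replicate 1 (-0.89) or NHS replicate 3 (-0.99). *nhr-91* had 253, 250.0 and 361 normalized counts in HS and 785, 657 and 1004 in NHS (log2 fold change -1.50, SE 0.20). *nhr-260* had 30.6, 34.3 and 40.0 normalized counts in HS and 175, 122 and 138 in NHS (log2 fold change -2.01, SE 0.19). The groups of these 3 genes did not overlap. The count of receptors down was 15 without NHS replicate 1.

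Among the other developmental transcription factors, 16 of 314 tested (5.10%, against 2.77% of all genes) were called down. Another 24 (7.64%, against 10.2%) were called up, and with equal totals 38 were called down and 19 up. This class was not matched for level either. In the bins from 36.8 to 376 normalized counts, 4.10 to 7.46% of all genes were called down. *peb-1*, for a DNA-binding protein of the pharynx, had 196, 189.7 and 346 normalized counts in HS and 879, 844 and 1177 in NHS (log2 fold change -2.02, SE 0.27, adjusted p = 0.00209). Replicate 3 was the highest library of both groups, and the call was lost without HS replicate 1 (adjusted p = 0.0113). *unc-86*, for a POU homeobox factor that sets the fate of several neuron types, had 101, 99.4 and 132 normalized counts in HS and 310.0, 312 and 264 in NHS (log2 fold change -1.41, SE 0.14). *bnc-1*, of the basonuclin family, fell with a log2 fold change of -1.87 (SE 0.24). *pag-3* and *sox-2*, which act in neuroblast lineages, also fell. The count down was 8 to 11 without HS replicate 1 or any NHS replicate, and the count up was 15 without HS replicate 1 and 14 without NHS replicate 2.

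Genes of the cuticle were split. Cuticlins and other apical matrix genes had 7 of 161 (4.35%) called down and 23 (14.3%) called up, and the cuticle collagens 1 of 168 down and 38 (22.6%) up. The shares over all genes were 2.77% down and 10.2% up, and neither class was matched for level. The falls were 6 cuticlin-like *cutl* genes and *mlt-10*, a gene of the molt. *cutl-15* had 207, 171 and 169.7 normalized counts in HS and 518, 493 and 456 in NHS (log2 fold change -1.42, SE 0.11, adjusted p = 2.00e-05). *cutl-10* had 215, 329 and 224 normalized counts in HS and 723, 659.6 and 656 in NHS (log2 fold change -1.43, SE 0.15). *mlt-10* had 62.2, 73.8 and 80.0 normalized counts in HS and 263, 129 and 246 in NHS, and its call was lost without HS replicate 1 or 2 or NHS replicate 3 (adjusted p = 0.01 to 0.0166). With the replicate number as a block, 16 apical matrix genes and 7 collagens were called down. Without HS replicate 3 the apical matrix count down was 11, and 4 collagens were called down without NHS replicate 2. The apical matrix count up was 11 without HS replicate 1 and 15 without NHS replicate 2 or 3, and the collagen count up was 25 without HS replicate 1. Molt-linked genes differed among replicates of 1 group. The collagen gene *rol-6* had 299.9, 285 and 561 normalized counts in HS and 894, 313 and 1429 in NHS, and the 5 hypodermis markers summed to 5210 to 8263 normalized counts in HS and 7185 to 13849 in NHS, overlapping between the groups. Within same-numbered pairs HS was lower each time, with marker sums of 5210 in HS and 10402 in NHS for replicate 1, 5725 in HS and 7185 in NHS for replicate 2, and 8263 in HS and 13849 in NHS for replicate 3. The same held for *rol-6*. Neither *rol-6* nor the other 4 hypodermis markers were called, and the part of these differences in the falls was not tested.

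Of the proteases and other small groups, 3 of 26 aspartyl and cathepsin-type cysteine protease genes (11.5%, against 2.77% of all genes) were called down, *asp-13*, *cpz-1* and *cpr-8*. In this class 2 (7.69%, against 10.2%) were called up. The class was sorted by symbol, so *hrg-7*, named above, lies outside it. *cpr-8* had 627, 503 and 648 normalized counts in HS and 1334, 1288 and 1291 in NHS (log2 fold change -1.14, SE 0.10). Of 72 cytochrome P450 genes 3 (4.17%) were called down and 4 (5.56%) up, with 5 down under the replicate number as a block and 9 down and 3 up with equal totals. Among them, *cyp-14A2* had 42.1, 31.2 and 34.5 normalized counts in HS and 110.1, 74.3 and 83.4 in NHS. Of 80 histone genes 3 (3.75%) were called down and 4 (5%) up, so that the share of falls in both classes was near that of all genes. Of the 3, *his-31* had 104, 124 and 124 normalized counts in HS and 331, 346 and 332 in NHS (log2 fold change -1.51, SE 0.11), and the other 2 are copies listed as *his-30* with equal values, so their reads cannot be assigned to 1 gene. Of 234 F-box genes with an *fbx* symbol 5 (2.14%) were called down, under the share of all genes, and 29 (12.4%) were called up. The F-box gene *dre-1*, named above, lies outside this class. The count down was 3 without HS replicate 2 or without any one NHS replicate, and without HS replicate 1 the count up was 18. Among the 5, *fbxl-1* stood at a much higher level, with 876, 951 and 849 normalized counts in HS and 1916, 1767 and 2023 in NHS. *zig-4*, for a secreted immunoglobulin-domain protein that keeps axons in place, fell with a log2 fold change of -1.70 (SE 0.14), and its relatives *zig-3* and *zig-8* fell as well. Genes known by a sequence name made up 231 of the 486 falls (47.5%), against 42.7% of the genes tested.

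In 29 of the 59 classes, with 1300 genes tested, limma called 0 genes down. In these classes 199 genes were lower at an unadjusted p under 0.05, and 106 were lower at an adjusted p under 0.01 with fold changes under 2. Of all 17551 genes tested, 2266 (12.9%) were lower at that adjusted p with any fold change. The 106 were spread unevenly. They included 21 of 77 autophagy and lysosome genes, 23 of 137 germ granule, small RNA and germline genes and 11 of 63 genes of fatty acid activation and beta-oxidation. The classes take in cytosolic and mitochondrial ribosomal proteins, translation factors, aminoacyl-tRNA synthetases, the respiratory chain, the citric acid cycle, glycolysis, the proteasome, splicing factors, vacuolar ATPase and sarcomere genes. Cytosolic ribosomal protein genes moved together. Of 82 tested, 0 were called up or down by limma at 2-fold, 80 were higher and 0 lower at an unadjusted p under 0.05, and 79 were higher at an adjusted p under 0.01. As a median over the 82, the log2 fold change was 0.46 on the authors' scaling, 0.53 with equal upper quartiles, 0.27 with equal totals outside the 20 most abundant genes and 0.10 with equal totals, where 1 of the 82 was higher at an adjusted p under 0.01. On the authors' scaling this median was above that of all genes (0.04). The other scalings move both medians together and could not change that order. *rpl-3* had 214860.0, 227304 and 208077 normalized counts in HS and 162024, 163084 and 163426 in NHS (log2 fold change 0.41, SE 0.05). *rla-0*, for the ribosomal stalk protein P0, rose slightly, by 0.47 on the log2 scale (SE 0.05). Of 57 sarcomere genes 36 were higher and 2 lower at an adjusted p under 0.01 with a median of 0.31, whereas with equal totals 2 were higher and 11 lower with a median of -0.04. The 4 body wall muscle markers summed to 783038 to 856069 normalized counts in HS and 615623 to 671846 in NHS, and the 4 pharynx markers to 150217 to 169812 in HS and 129615 to 134039 in NHS, without overlap in either list. Of these 8 markers 0 were called by limma, and 7 were higher at an unadjusted p under 0.05. The part of these differences in the sarcomere values was not tested. Of 72 respiratory chain genes 43 were higher and 1 lower, with a median of 0.26, whereas with equal totals 1 was higher and 8 lower with a median of -0.10.

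The sum of normalized counts was more concentrated in a few genes in HS. A normalized count grows with transcript length, so these sums describe reads rather than molecules. The most abundant gene of each library held 6.05, 5.69 and 5.16% of the sum in HS and 1.27, 1.29 and 1.21% in NHS. The 100 most abundant genes held 41.1 ± 1.38% in HS and 31.1 ± 0.295% in NHS (SD, n = 3 each). The number of genes that together held 50% of the sum was 157, 153 and 177 in HS and 294, 286 and 291 in NHS. For 90% of the sum it was 2875, 2839 and 3053 in HS and 3710.0, 3663 and 3700.0 in NHS. In all of these measures the groups did not overlap, with p = 0.10 from an exact two-sided permutation test, the smallest that 3 against 3 libraries can give. After division by transcript length, 50% of the sum was held by 49 fewer genes in HS than in NHS, in place of 128 fewer.

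**Figure D3:**
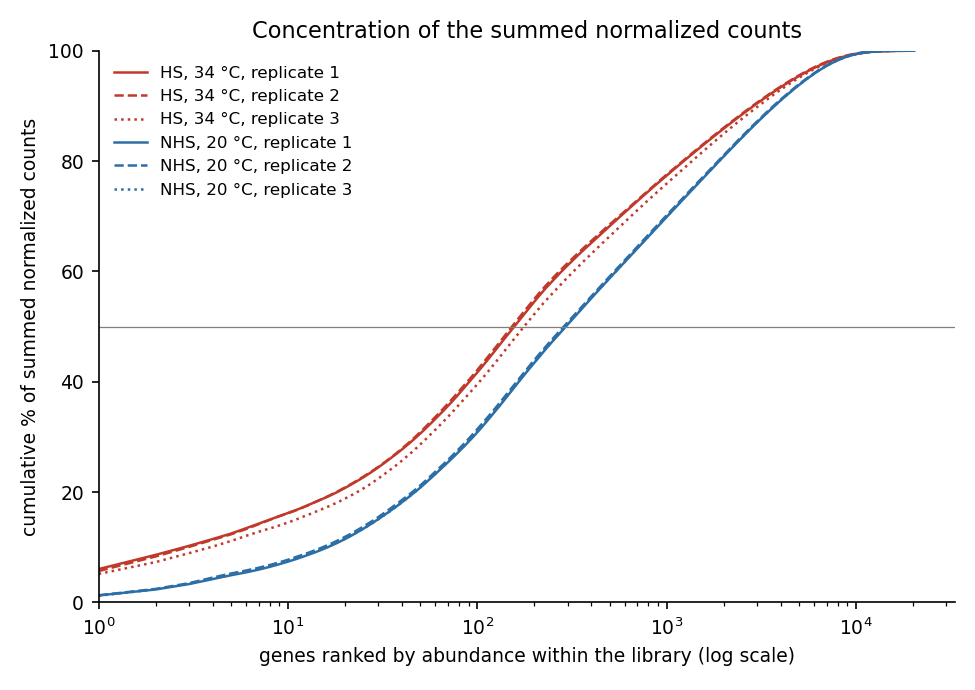
Cumulative share of the summed normalized counts (%) against the rank of genes by abundance within each library (log scale), with 3 HS libraries in red and 3 NHS libraries in blue. The HS curves start near 5 to 6% and cross the grey 50% line at 153 to 177 genes, and the NHS curves start near 1.2% and cross it at 286 to 294 genes.

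Heat shock protein genes took most of the share that moved. The HSP70 and HSP110 class held 9.63, 9.57 and 8.17% of the sum in HS and 0.610, 0.595 and 0.509% in NHS. Cytosolic small heat shock protein genes held 2.00, 2.16 and 1.42% in HS and 0.0842, 0.0780 and 0.0611% in NHS. Together they held 10.98 ± 1.21% in HS and 0.645 ± 0.0663% in NHS, with HS replicate 3 lowest of the HS libraries. Ribosomal protein genes held 16.0, 16.8 and 16.4% of the sum in HS and 15.2, 15.2 and 15.5% in NHS. Of the 59 classes, 45 had a lower share in every HS library than in every NHS library, 6 had a higher share, and 8 overlapped. Basement membrane, adhesion and junction genes lost most share among the classes defined by function, with 3.18, 3.06 and 3.24% in HS and 3.56, 3.71 and 3.53% in NHS. A share falls when other genes gain, even where a class itself gains counts. The summed normalized counts of this class were higher in HS, with a mean of 1310400 against 1166390 in NHS. Cuticlins and apical matrix genes held 0.482 ± 0.105% of the sum in HS and 0.892 ± 0.124% in NHS, with replicate 3 highest in both groups. Synaptic and neuronal signalling genes held 0.384, 0.384 and 0.417% in HS and 0.614, 0.622 and 0.589% in NHS. Sarcomere genes held 5.92 ± 0.166% in HS and 5.93 ± 0.127% in NHS, within the spread of the libraries. Collagens overlapped as well.

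**Figure D4:**
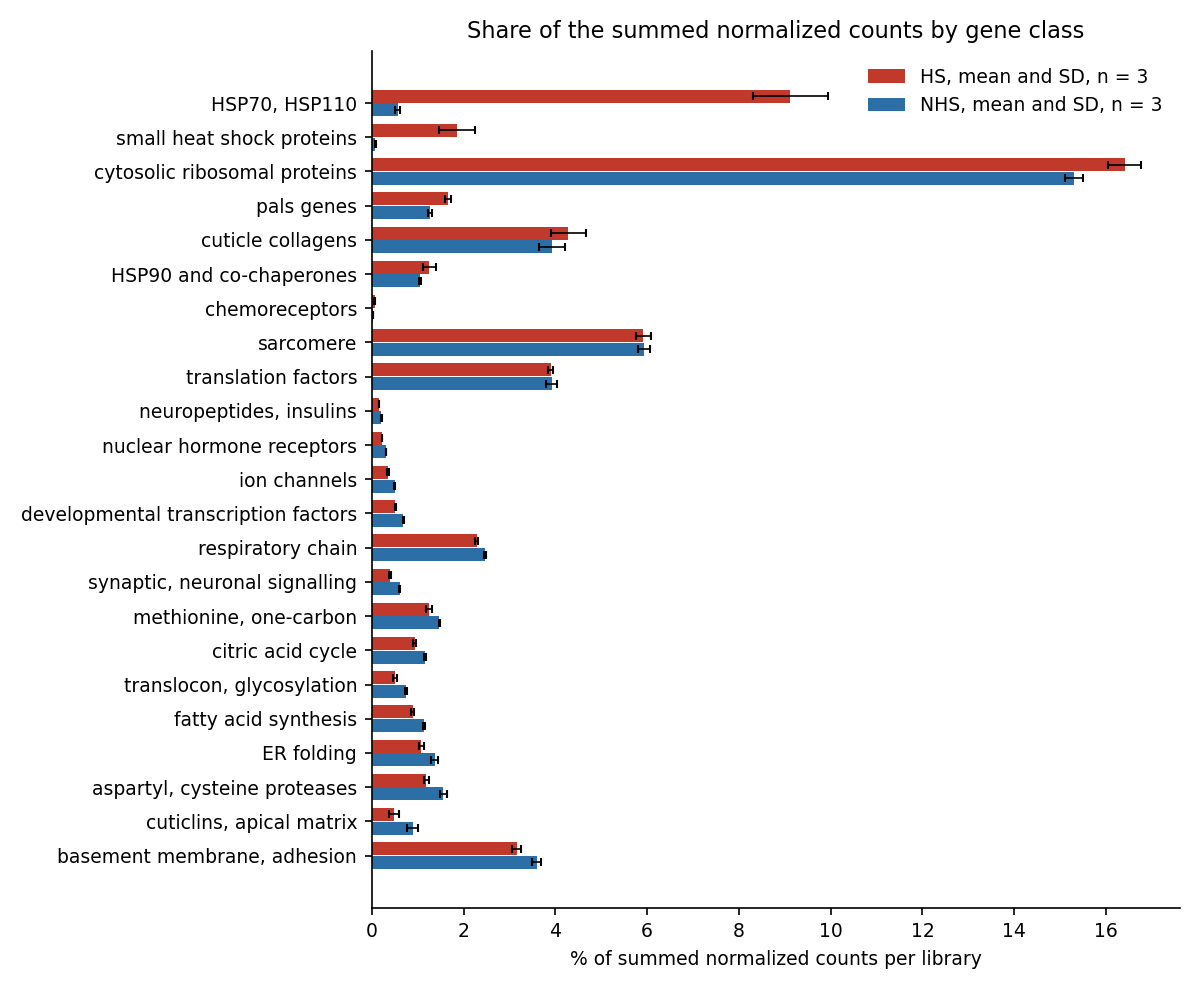
Share of the summed normalized counts (%) held by 23 gene classes, as mean ± SD of 3 libraries, with HS above NHS in each pair. HSP70 and HSP110 genes held 8.17 to 9.63% in HS and 0.509 to 0.610% in NHS, while ribosomal protein genes remained the largest class shown in both groups and sarcomere and translation factor shares overlapped.

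A comparison of gene shares between 2 libraries gives the part of the sum that would have to be reassigned to turn one into the other. It was 13.3 to 17.5% for the 9 pairs of an HS with an NHS library, against 3.34 to 5.30% for the 3 pairs within HS and 3.31 to 3.67% for the 3 pairs within NHS. Of the mean shares, 12941 genes had a lower share in HS and gave up 15.3 percentage points of the sum in all. The 486 genes called down accounted for 0.460 of these points. Their own share was 0.180, 0.180 and 0.214% in HS and 0.678, 0.617 and 0.659% in NHS, values that the call itself separates. Most of the share that the chaperone genes gained was therefore matched by small losses of share over many genes. The genes with large falls made up little of that loss. A lower share does not need a lower count, and 8584 genes had a lower mean normalized count in HS on the authors' scaling. In normalized counts on that scaling, gains of group means added up to 10933400 and losses to 1833620. The summed counts were higher in HS on that scaling, and with equal totals gains and losses would be equal by construction. The gains and losses here therefore describe normalized counts under 1 scaling, not amounts of mRNA. The 10 largest gains made 42.96% of all gains, and 21 genes made 50%. The 10 largest losses made 9.996% of all losses, and 359 genes made 50%. Genes called down accounted for 7.19% of the losses, and genes that were lower at an adjusted p under 0.01 by less than 2-fold for 48.8%.

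The 15 genes with the most normalized counts had 10 members in common between the groups, among them the elongation factor genes *eef-1A.1* and *eef-2*, the myosin gene *unc-54*, the giant nuclear anchorage gene *anc-1* and *rpl-3*. The other 5 in HS were *F44E5.5*, *F44E5.4* and *hsp-1*, of the HSP70 family, with *hsp-16.1* and *hsp-90*. In NHS they were *ant-1.1*, for the ADP/ATP carrier of mitochondria, the gut protease gene *asp-1*, *bcf-1*, the fatty acid synthase gene *fasn-1* and *ahcy-1*, for S-adenosylhomocysteine hydrolase. *bcf-1* had 99074, 84479 and 95521 normalized counts in HS and 140433, 131753 and 132381 in NHS (log2 fold change -0.54, SE 0.06, adjusted p = 1.87e-04), a fall of less than 2-fold in which its mean fell by 41831 normalized counts, more than that of any gene called down. *fasn-1* had 91940.5, 106017 and 124748 normalized counts in HS and 121351, 129986 and 146389 in NHS, with overlapping groups and an adjusted p of 0.0779, which was 7.89e-04 with the replicate number as a block. *asp-1* was not called, with a log2 fold change of 0.01 (SE 0.06), and its share of the sum was 0.356% in HS and 0.454% in NHS.

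Among genes called up, the largest gain in counts outside the chaperones was that of *nurf-1*, for a subunit of a chromatin remodelling complex (chromosome II, 14390713 to 14407911). It had 123574, 147836 and 135775 normalized counts in HS and 7430.1, 7905 and 8018 in NHS, which is 4.12 as a log2 fold change (SE 0.07, adjusted p = 1.44e-09). *scp-1*, for a relative of the SREBP escort protein SCAP, had 60073, 74898 and 49378 normalized counts in HS and 2092, 2010.3 and 1631 in NHS. *R107.5* had 43002, 50347 and 49286 normalized counts in HS and 3556, 4232 and 3558 in NHS. In each of the 3 genes the HS libraries exceeded the NHS libraries many times over. *tent-5*, for a poly(A) polymerase, had 46756, 51593 and 21825 normalized counts in HS and 6187, 6046 and 4992 in NHS, and its call (adjusted p = 0.00537) was lost without any one library other than HS replicate 3 (adjusted p up to 0.0245). Among the rises named within classes, *uggt-2*, for a glycoprotein folding sensor of the endoplasmic reticulum, had 4965, 4010.4 and 5657 normalized counts in HS and 81.6, 72.6 and 58.5 in NHS. The sperm gene *spe-36* had 1160.3, 849 and 1018 normalized counts in HS and 20.6, 15.03 and 21.3 in NHS. The F-box gene *fbxa-48* had 330.3, 309.9 and 222 normalized counts in HS and 1.97, 1.67 and 2.66 in NHS. These 3 genes had log2 fold changes of 6.08, 5.66 and 6.53. By class, the share called up was 32.5% of 40 *oac* acyltransferase genes, 33.3% of 24 *pals* genes and 33.0% of 106 yolk and sperm protein genes. Of the 6 *vit* yolk genes tested, 5 were called up. The share was 23.2% of 181 C-type lectins and 14.3% of the apical matrix genes, against 10.2% of all genes. In the bins from 5.45 to 36.7 normalized counts, 28.5 and 24.8% of all genes were called up. These classes were not matched for level. Without HS replicate 1 the counts up were 7 of the *oac* genes in place of 13, 23 of the lectins in place of 42 and 11 of the apical matrix genes in place of 23. The *oac* count was also 7 or 8 without any one NHS replicate, and the lectin count was 25 without NHS replicate 1 and 27 without NHS replicate 3.

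The genes that fell and those that rose came from different levels of abundance. Genes tested were split into 10 bins of equal size by their mean over the 6 libraries. Most falls lay in the bins from 36.8 to 88.9 and from 88.998 to 193 normalized counts, with 131 (7.46%) and 113 (6.44%) genes called down. In the lowest bin 2 genes were called down and 312 up, and in the next bin 20 down and 500 (28.5%) up. In the highest bin, above 2912 normalized counts, 5 genes (0.285%) were called down and 43 up. The median log2 fold change was 1.02 in the lowest bin, -0.11 in the sixth and 0.09 in the highest. Of the 4159 genes with an NHS mean over 1000 normalized counts, 33 (0.793%) were called down.

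**Figure D5:**
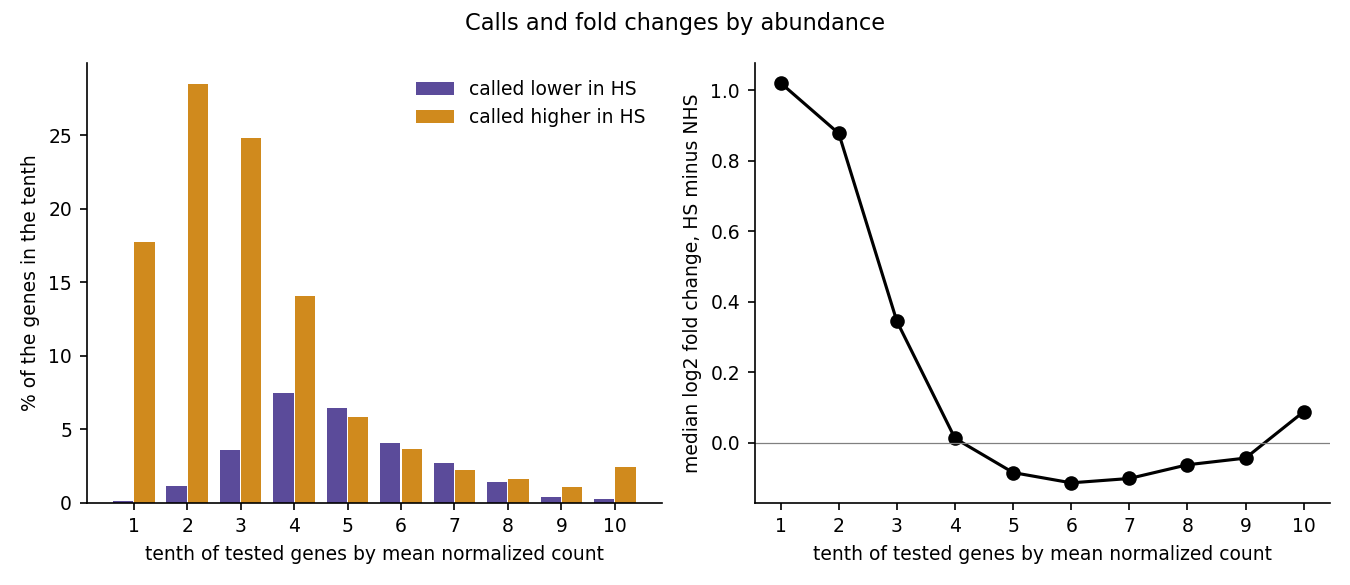
Share of genes called lower and higher in HS (left, %) and median log2 fold change of HS minus NHS (right) in 10 equal groups of the 17551 tested genes ordered by mean normalized count. Rises peak in the second bin (28.5%), falls in the fourth (7.46%), and the median lies below 0 from the fifth to the ninth bin.

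Falls were unevenly spread over the chromosomes. On X, 99 of 2457 genes tested (4.03%) were called down and 135 (5.49%) up, with a median log2 fold change of -0.11. On V, 145 of 3987 (3.64%) were called down and 492 (12.3%) up, and on I, 40 of 2649 (1.51%) were called down and 281 (10.6%) up. With equal totals X again had the highest count per gene of these 3, with 276 called down against 337 on V and 138 on I. Genes called down had a median transcript length of 1209 bases and 6 exons, against 1252 bases and 6 exons for all genes tested. Among the 10284 genes whose mean reached 100, the median log2 fold change was 0.07 in the shortest of 4 bins by transcript length (up to 1003 bases) and -0.13 in the longest (from 2287 bases).

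More genes were detected after heat shock. With every library thinned to the 2.86e+07 reads of the smallest, 18711, 18399 and 18759 genes had at least 1 read in HS and 17460.0, 17402 and 17472 in NHS. The groups did not overlap (difference of means 1178 genes, exact two-sided permutation p = 0.10, the smallest possible here). As deposited, 18868 ± 182 genes were above 0 in HS and 17692 ± 74.7 in NHS.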

How the data were processed

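Whole L2 larvae of N2 were heat shocked or left unshocked, and total RNA depleted of ribosomal RNA was sequenced from a stranded kit with single reads of 75 bases. The deposited signal values are normalized counts, for which the authors assigned reads to ce11 transcripts with Salmon 0.13.1, summed them per gene and divided by DESeq2 1.18.1 size factors. Of the low values, 90.8 to 92.2% lay within 0.05 reads of whole multiples of the value of 1 read, so counts were not rebuilt and no count test was run. That value gave each library's estimated depth (2.86e+07 to 4.39e+07 reads). Duplicated libraries (0 pairs with equal values) and columns of unmapped samples (0) were not found. The table of the second species was not used.

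Genes whose mean over all 6 libraries reached 2 were tested on log2(normalized count + 1) with limma 3.58.1 (R 4.3.3, moderated with an intensity trend and robust estimation), HS minus NHS, with Benjamini-Hochberg adjustment over 17551 genes. The test was checked on simulated data, with known changes in genes of an NHS mean of at least 10. It called 26.5% of 2-fold falls, which lie at the limit itself, 85.3% of 4-fold falls and 93.9% of 8-fold falls. For 2-fold rises the share was 36.4%. Fold changes on this scale understate those of low genes. Shares of the summed normalized counts were compared by an exact two-sided permutation test (scipy 1.17.1). Genes were sorted by symbol into 59 classes, and positions, lengths and exons came from the WBcel235 annotation of Ensembl release 115, which placed 20109 of 20213 genes. Genes were named by fixed rules: the 15 largest falls by fold at a mean of 10 or more, the 15 largest losses and gains in normalized counts, up to 4 falls or 2 rises per class with at least 3 down or 10 up, the 15 most abundant genes of each group and the marker genes. Other members of a class were named after their values were seen. The classes, lists and genes were chosen with earlier results of these data known.

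Replicate numbers pair the samples by the data: deviations from the group means correlated at 0.18, 0.16 and 0.29 between same-numbered HS and NHS libraries over 14632 genes with a mean of at least 10, each library correlating best with its own number. The fit with the replicate number as a block was an alternative. The other alternatives were the pseudocount, the filter, the thresholds, 3 scalings, leaving out each library, sums without the 20 most abundant genes and division by transcript length. Promoter motifs of the falling genes were not examined.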

Additional observations from a re-analysis of the deposited data

How the results depend on the processing

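The count of genes called down was 486 and changed by more than 1.5 times under 3 alternatives. It was 1329 with libraries scaled to equal totals, 819 with equal totals of the genes outside the 20 most abundant of any library, and 2266 with no minimum fold change. Under both scalings all 486 genes were still called. Both scalings lower HS against NHS by nearly the same amount in all genes, so they could hardly remove a call down. Equal upper quartiles shift the genes the other way, and 385 of the 486 were still called. The count called up was 1791, and 1129 at a mean of at least 10, where 14632 genes were tested, and 2765 with no minimum fold change. Leaving out 1 library gave 338 to 595 down and 1137 to 1611 up, with 1137 without HS replicate 1 and fewer libraries by construction.

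HS minus NHS, the share of the 10 most abundant genes differed by 8.06 percentage points, by 0.684 without the 20 most abundant genes of any library and by 5.52 after division by transcript length. For the 100 most abundant genes the differences were 10.04, 4.56 and 8.23 points. The number of genes that held 50% of the sum differed by -128, and by -49 after division by transcript length. For 90% of the sum the difference was -769, -458 without the 20 most abundant genes and -962 after division by transcript length. The cause of these shifts was not tested beyond the construction of each alternative. With the replicate number as a block, 627 genes were called down, 480 of the 486 among them, and 1916 up. Of 234 named calls 231 were kept with the block, the exceptions being *mxl-3*, *tkr-2* and *dmd-10*. With equal totals, which could hardly remove a fall, 233 named calls were kept. The named calls kept numbered 229 at a pseudocount of 0.5, 210 at a pseudocount of 5 and 177 to 212 with a library left out. No direction reversed. Genes of a few reads are limited by depth.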

Other observations

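A list of 67 genes for cilia and intraflagellar transport, the machinery that builds the sensory endings of neurons, was drawn up after the values had been seen and is given without a test. Of 66 genes tested singly, 5 (7.58%, against 2.77% of all genes) were called down, 1 was called up, and the median log2 fold change was -0.32, with 54 of the 66 below 0. The share among all genes depended on level, up to 7.46% in the bin from 36.8 to 88.9 normalized counts, and the list was not matched for level. *xbx-3* had 22.98, 30.2 and 34.5 normalized counts in HS and 82.6, 66.0 and 87.8 in NHS. *osm-12*, of the BBSome, which sorts cargo in cilia, had 49.8, 40.6 and 46.9 normalized counts in HS and 131, 113 and 106 in NHS. In both genes every HS library was below every NHS library. The other falls were *bbs-4*, *dyf-11* and *dyf-7*. The call of *dyf-7* was lost without any one library (adjusted p up to 0.0332 from limma) and that of *dyf-11* without HS replicate 1 or any NHS replicate (up to 0.0130). Leaving out a library gave 3 to 7 falls, and equal totals gave 13.

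The gene with the most normalized counts at 20 °C was *pals-26* (chromosome III, 4375154 to 4378907), of a family of unknown biochemical function. It had 686593, 743093 and 635469 normalized counts in HS and 408576, 419824 and 394384 in NHS, a difference of 0.75 on the log2 scale (SE 0.06, adjusted p = 2.28e-05 from limma) that was under the 2-fold limit. It made up 99.6% of the normalized counts of the *pals* class in NHS. An annotated non-coding RNA gene, *srpr-1.1*, lies on the opposite strand with its nearest end 2 bases past the end of *pals-26*, and a pseudogene on the same strand overlaps its start by 170 bases.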
